A study of Mus musculus with 9 samples.

Results

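The genes described here are 10 that mark regulatory T cells or encode the receptors that restrain or sustain T cell activation: Foxp3, Il2ra, Ctla4, Ikzf2, Tnfrsf18, Tnfrsf4, Pdcd1, Cd28, Icos and Tigit. They were found on Agilent whole-genome mouse arrays by taking every probe whose accession maps to one of these symbols. This gave 12 of the 39429 probes, 2 each for Ikzf2 and Icos and 1 for each of the other 8 genes, and 10 of the 32451 genes or accessions. RNA came from the spleen of female BALB/c mice, in 3 groups of 3 samples with 1 array each. Diseased mice received a normal dietary selenium supply (normal Se GD) or a low one (low Se GD), and mice free of Graves' disease received the low one (low Se non-GD). Neither the labels nor the files say how the disease was induced, what the diets held or how old the mice were. The study asked how selenium intake bears on the disease, and it had no healthy mice on the normal supply. Selenium could therefore be compared among diseased mice only, and the disease at a low supply only.

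Regulatory T cells are CD4 T cells that hold other lymphocytes in check, and their loss leads to autoimmunity in mice. Foxp3 is the transcription factor that defines them, Ikzf2 encodes its partner Helios, and Il2ra encodes the alpha chain that gives these cells a high-affinity receptor for interleukin 2. Other T cells carry the remaining receptors too, most of them once activated and Cd28 also when naive. Ctla4, Pdcd1 and Tigit encode inhibitory receptors, and Cd28 and Icos co-stimulatory receptors. Tnfrsf18 (GITR) and Tnfrsf4 (OX40) encode co-stimulatory members of the tumour necrosis factor receptor family. In Graves' disease, antibodies produced with T cell help stimulate the thyrotropin receptor.

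The promoters of 3 members are shown because Pdcd1 had the largest difference between groups among the 10 genes, and Foxp3 and Il2ra are among those that mark regulatory T cells. Each is the 250 bases before the start of the gene, 5′ to 3′ on the gene's strand, from RefSeq on GRCm38.p6: Pdcd1 at chr1:94052554-94052803 (minus strand), Foxp3 at chrX:7580233-7580482 (plus strand, the second of 2 start sites listed) and Il2ra at chr2:11642542-11642791 (plus strand). Capitals mark matches to motifs searched on both strands.
Pdcd1: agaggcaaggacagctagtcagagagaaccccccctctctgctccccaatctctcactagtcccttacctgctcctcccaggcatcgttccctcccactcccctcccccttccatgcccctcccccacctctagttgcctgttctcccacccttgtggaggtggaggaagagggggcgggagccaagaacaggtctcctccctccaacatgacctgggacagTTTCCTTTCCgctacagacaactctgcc
Foxp3: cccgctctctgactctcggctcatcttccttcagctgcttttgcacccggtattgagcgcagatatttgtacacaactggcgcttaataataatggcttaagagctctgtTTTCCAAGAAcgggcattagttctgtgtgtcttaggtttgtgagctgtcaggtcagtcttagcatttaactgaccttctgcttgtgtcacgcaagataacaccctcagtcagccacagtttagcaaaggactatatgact
Il2ra: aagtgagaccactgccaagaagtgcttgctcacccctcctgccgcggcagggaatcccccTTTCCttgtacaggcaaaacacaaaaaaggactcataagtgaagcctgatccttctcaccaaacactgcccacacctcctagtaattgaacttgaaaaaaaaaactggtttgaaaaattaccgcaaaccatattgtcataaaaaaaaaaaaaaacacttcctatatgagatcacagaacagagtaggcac
The motifs were the core of NFAT sites (GGAAA, which reads TTTCC on the other strand), AP-1 (TGANTCA) and STAT (TTCNNNGAA). NFAT is the factor that T cell receptor signalling activates, and STAT5 carries the interleukin 2 signal. The RefSeq table held 7 of the 10 genes with 8 start sites, and all 8 windows had at least 1 NFAT core, a match that 55.6% of the 32851 windows of this length in the table also had. Pdcd1 had 2 copies side by side close to its start. The STAT motif was found in the Foxp3 window above, where it overlaps the TTTCC, and in that of Tnfrsf18. Among all windows 7.02% held it and 6.75% the AP-1 motif, which was in none of the 8. Cd28, Ctla4 and Icos are neighbours on chromosome 1 with 0 protein-coding genes between them, as are Tnfrsf4 and Tnfrsf18 on chromosome 4.

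All values below are log2 signals minus the 75th percentile of the array, and levels of different genes are not compared. Every probe of the 10 genes passed the filter of being well above background on at least 3 arrays, none of their spots was marked as an outlier, and 0 spots on any array were saturated. Between 58.4% and 82.6% of the non-control spots were well above background, the lowest share being that of normal Se GD replicate 3, which was also scanned apart from all others. By the scan times in the file headers, the 3 low Se non-GD arrays shared a scan batch with low Se GD replicate 1, and the other 2 low Se GD arrays shared one with normal Se GD replicates 1 and 2. For 78.3% of genes, low Se non-GD replicate 3 had a value in the gap spanned by the other arrays of the group, members included in 9 of 10 cases, and low Se GD replicate 2 did so for 69% of genes and 7 members. The counts of members called are therefore also given without these 2 arrays, a choice made after the data were seen. For most genes this keeps the outer values of a group, which widens the estimated spread, and it lowers the degrees of freedom. Fewer calls were thus favoured in advance, and a call lost there cannot be read as a check of the result. The labels do not say whether samples came from separate animals, so each p-value reflects only how these samples vary, which may be technical. Cd3e, a chain of the T cell receptor complex, and Cd4, the co-receptor of helper and regulatory T cells, were well above background on all 9 arrays.

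With disease at a low selenium supply, 1 of the 10 genes was higher and 2 were lower. Cd28 was 1.63-fold higher in low Se GD than in low Se non-GD spleens, Ikzf2 was 1.59-fold lower by 1 of its 2 probes, and Pdcd1 was 5.36-fold lower (limma with Benjamini-Hochberg adjustment over 26351 genes). These 3 of 10 stand beside 24.9% of all genes past the same threshold, 12.7% higher and 12.1% lower, a share near that of the members. Of those calls over all genes 51.2% were higher, against 40.9% when the background was corrected by normexp. The median log2 fold change of the 10 genes was -0.14, against 0.08 over all genes tested. Without the 2 arrays that lay between the others of their groups, 0 of the 10 and 1.02% of all genes passed the threshold in limma. An unadjusted p under 0.05 was met by 3 members, with the share of all genes at that limit not reported here. The fold changes there were -2.43 for Pdcd1, -0.72 for Ikzf2 and 0.72 for Cd28. Without normal Se GD replicate 3, which enters this comparison only through the shared estimate of the spread, 5 passed, with Foxp3 (adjusted p = 0.042) and Icos (adjusted p = 0.0413) added, and 40.9% of all genes did.

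Among diseased mice, none of the 10 genes passed the threshold in limma between a normal and a low selenium supply. All 10 had a positive fold change, against 50.1% of all genes, and their median was 0.20, against 0.00 over all genes tested. Foxp3 (0.017, SE 0.139) and Pdcd1 (0.025, SE 0.338) were close to 0. Foxp3, Pdcd1 and Tigit turned negative under some alternatives. Some members also ran together across the arrays, so the 10 signs are not independent. Il2ra, Ikzf2, Icos and Tnfrsf4, 4 of the 10, had an unadjusted p under 0.05, a limit that 19.4% of all genes met. After adjustment 1.26% of all genes passed, 0.972% higher and 0.288% lower. The count was 1 when genes had to be above background on every array, where Ikzf2 had an adjusted p of 0.0458 and 6.92% of all genes passed, and 5 under limma's array weights, where 41% of all genes passed. Without the 2 in-between arrays 0 members and 0 of all genes passed. An unadjusted p under 0.05 was then met by 3 members, with the share of all genes at that limit not reported here. The median log2 fold change of 10 erythroid markers in the same comparison was -1.05, with 0 passing in limma and 5 at an unadjusted p under 0.05, and their part in the member differences was not tested.

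Between normal Se GD and low Se non-GD spleens, which differ in both disease and selenium, 2 genes were higher and 1 was lower. Icos was 1.85-fold higher and Cd28 1.79-fold higher in normal Se GD, and Pdcd1 was lower by 2.40 on the log2 scale. Over all genes 32.3% passed, 18.9% higher and 13.4% lower. The scan batch could not be separated from these groups by any batch that held both. With the batch as a term in the fit, which links the groups through the low Se GD arrays, 1 member passed, Ctla4 (0.99, adjusted p = 0.0441), and 4831 of the 26351 genes did. Every value of that fit in this comparison rests on low Se GD replicate 1, the only low Se GD array scanned with low Se non-GD. For Ctla4 it was the highest array of its group. Normal Se GD replicate 3, alone in its batch, adds nothing to these values. Without the 2 in-between arrays 2 members passed, Pdcd1 (adjusted p = 0.0323) and Icos (adjusted p = 0.0387), and 11.6% of all genes did. The 3 comparisons share groups and are not independent of each other.

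**Figure D1:**
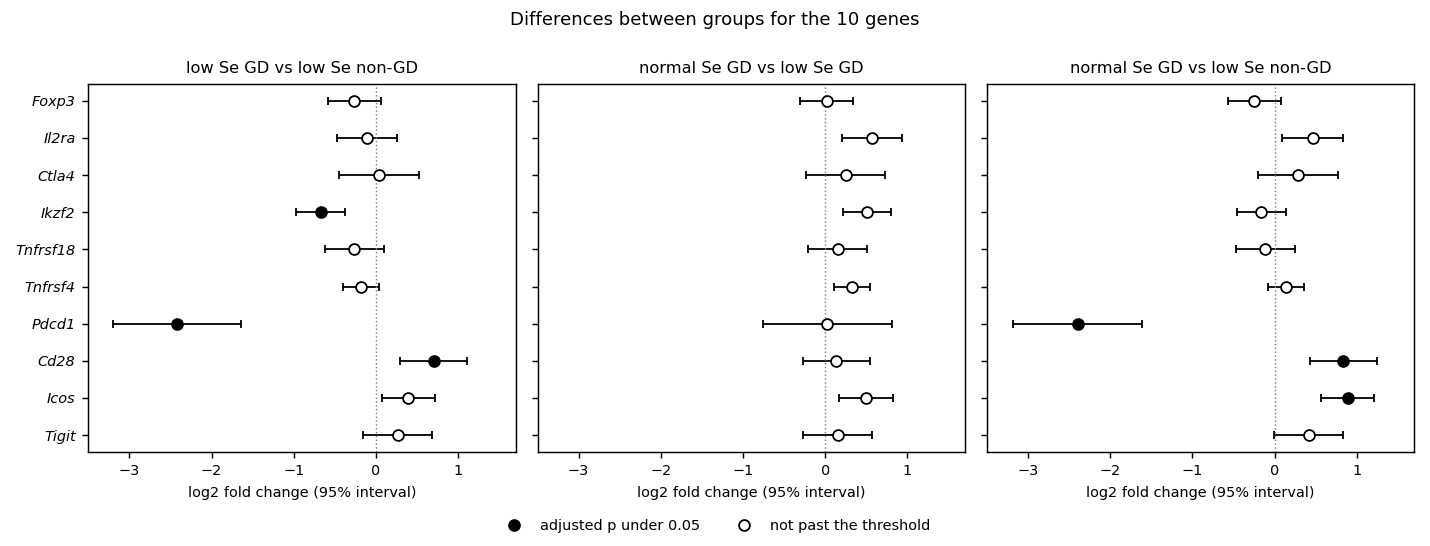
Log2 fold changes of the 10 genes (horizontal axis) with 95% intervals from the fit, one panel per comparison and one row per gene, with filled points past an adjusted p of 0.05. Pdcd1 lies at -2.42 and -2.40 in the comparisons with low Se non-GD and at 0.02 between the diseased groups. There all 10 points are right of 0, those of Foxp3 and Pdcd1 barely so, and none is filled.

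Foxp3 had levels of -2.22, -2.02 and -2.55 in normal Se GD spleens, -2.27, -2.28 and -2.29 in low Se GD spleens, and -2.10, -1.91 and -2.04 in low Se non-GD spleens. The low Se GD arrays were nearly identical and all lay below the low Se non-GD arrays, while the normal Se GD arrays spread across both. The log2 fold change with disease at low selenium was -0.26 (SE 0.14, adjusted p = 0.211 in limma), and its 95% interval ran from -0.59 to 0.06. Between the diseased groups it was 0.02 (SE 0.14, adjusted p = 0.959), with an interval from -0.31 to 0.34. Normal Se GD against low Se non-GD gave -0.25 (adjusted p = 0.219). Foxp3 did not pass the threshold in any of these, but with disease at low selenium it was called lower under 4 of 25 alternatives. These were normexp (-0.34, adjusted p = 0.0479), a fit of only the groups compared (adjusted p = 0.0496), array weights (adjusted p = 0.00134) and leaving out normal Se GD replicate 3 (adjusted p = 0.042). In that order, 20.9%, 34.5%, 75.7% and 40.9% of all genes were called in these settings. Since whole spleen was measured, fewer regulatory T cells and less Foxp3 RNA per cell cannot be told apart.

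Ikzf2 was measured by 2 probes that differed from each other. The brighter one (A_52_P413515), which stands for the gene, had levels of -0.90, -0.91 and -1.002 in normal Se GD spleens, -1.53, -1.36 and -1.45 in low Se GD spleens, and -0.999, -0.54 and -0.77 in low Se non-GD spleens. All 3 low Se GD arrays were below every array of the other groups. Its log2 fold change was -0.67 with disease at low selenium (SE 0.13, adjusted p = 0.00837), 0.51 between normal Se GD and low Se GD (SE 0.13, adjusted p = 0.0899) and -0.17 between normal Se GD and low Se non-GD (adjusted p = 0.366). Low Se GD was the lowest group, and the other groups overlapped. Within the scan batch that held low Se GD replicate 1 and the low Se non-GD arrays, the first difference was -0.76 (adjusted p = 0.0281), and it rests on that single low Se GD array with the spread taken from the other arrays.

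The dimmer Ikzf2 probe (A_66_P122551) had levels of -3.97, -4.07 and -3.51 in normal Se GD spleens, -4.38, -4.43 and -4.60 in low Se GD spleens, and -4.74, -4.17 and -4.33 in low Se non-GD spleens. By this probe the normal Se GD arrays were the highest and the other groups overlapped. In the fit over 31897 probes its fold changes were -0.06 with disease at low selenium (adjusted p = 0.86), 0.62 between the diseased groups (adjusted p = 0.122) and 0.56 against low Se non-GD (adjusted p = 0.0571). The call of Ikzf2 with disease was thus made by 1 of 2 probes, and with the mean of both the fold change was -0.37 (adjusted p = 0.101). Both probes had a positive fold change between normal and low selenium. Over all probes 25%, 2.12% and 33.5% passed in the 3 comparisons (disease at low selenium, selenium in disease, and both).

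**Figure D2:**
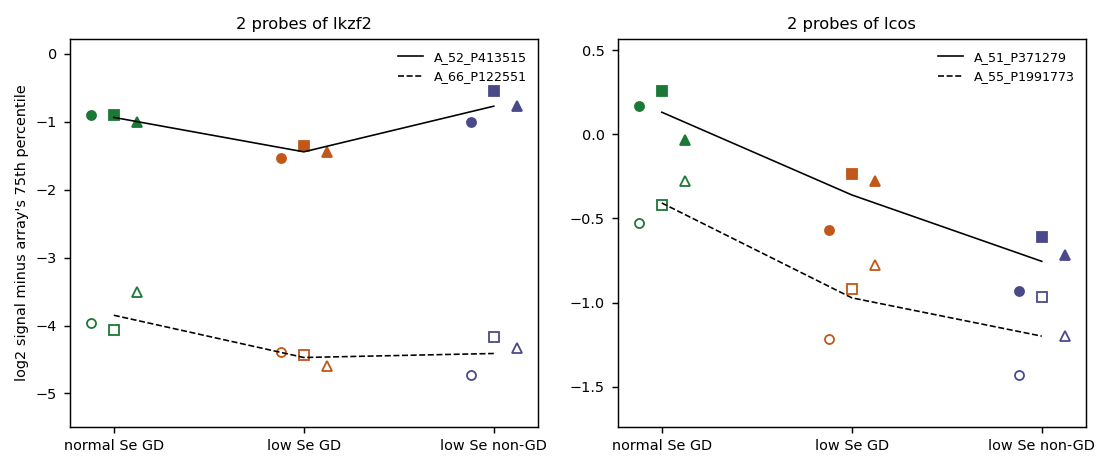
Levels of both probes of Ikzf2 and of Icos on the 9 arrays (vertical axis, log2 signal scaled to the 75th percentile), filled for the probe that stands for the gene and open for the other, with lines through the group means. The Ikzf2 probes differ in the low Se non-GD group, where the filled points are high and the open ones low, while the Icos probes run in parallel.

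Il2ra had levels of -1.86, -1.72 and -1.94 in normal Se GD spleens, -2.56, -2.39 and -2.27 in low Se GD spleens, and -2.62, -2.08 and -2.20 in low Se non-GD spleens. The normal Se GD arrays were higher than all others, and the other groups overlapped. Between the diseased groups the log2 fold change was 0.57 (SE 0.16, unadjusted p = 0.00755, adjusted p = 0.11), with a 95% interval from 0.20 to 0.94. Within the scan batch that held 2 arrays of each diseased group it was 0.54 (adjusted p = 0.127). Against low Se non-GD the normal Se GD group gave 0.46 (adjusted p = 0.0596), and low Se GD gave -0.11 (adjusted p = 0.671).

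Pdcd1, which encodes the inhibitory receptor PD-1 of activated and exhausted T cells, had levels of 0.18, -0.22 and -0.45 in normal Se GD spleens, 0.20, -0.16 and -0.59 in low Se GD spleens, and 1.61, 2.85 and 2.25 in low Se non-GD spleens. Both diseased groups lay well below the low Se non-GD arrays and overlapped each other. The mean was -0.16 ± 0.32 in normal Se GD, -0.19 ± 0.39 in low Se GD and 2.24 ± 0.62 in low Se non-GD spleens (SD, n = 3 each). The log2 fold change was -2.42 with disease at low selenium (SE 0.34, adjusted p = 0.00278), -2.40 between normal Se GD and low Se non-GD (SE 0.34, adjusted p = 0.00205) and 0.02 between the diseased groups (SE 0.34, adjusted p = 0.978). Within the scan batch shared by low Se GD replicate 1 and the low Se non-GD arrays, the first was -2.04 (adjusted p = 0.0293), a value that rests on that single low Se GD array with the spread taken from the other arrays. With the scan batch in the fit, the second was -1.68 (adjusted p = 0.112), and it links through the same single low Se GD array.

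The Pdcd1 signal moved with a control spot. The array carries spots for E1A transcripts, which Agilent supplies as RNA that can be added to a sample before labelling. Of these control spots only a107 is reported here. It averaged 1.56 ± 0.76 in normal Se GD, 1.75 ± 0.75 in low Se GD and 5.31 ± 0.57 in low Se non-GD samples (SD, n = 3 each). Across the 9 arrays Pdcd1 and this spot had a Pearson r of 0.991, and after the group means were taken off r was 0.918. Over all genes tested the median r within groups was 0.167. The 1401 genes that were at least 4-fold lower in low Se GD than in low Se non-GD, Pdcd1 among them, had a median of 0.767, and 1299 of them passed the threshold. The part of this shared movement in the Pdcd1 difference was not tested. Within groups r was 0.924 for Tigit, 0.743 for Cd28 and 0.715 for Ctla4, but over the 9 arrays it was negative for all 3, at -0.39, -0.744 and -0.106 in that order. For Tnfrsf4, Icos and Il2ra the r within groups was -0.391, 0.122 and 0.155. Foxp3, Ikzf2 and Tnfrsf18 had a positive r both ways, as Pdcd1 did. It was 0.741, 0.628 and 0.547 over the 9 arrays and 0.467, 0.43 and 0.446 within groups. The part of this movement in their differences was not tested either.

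**Figure D3:**
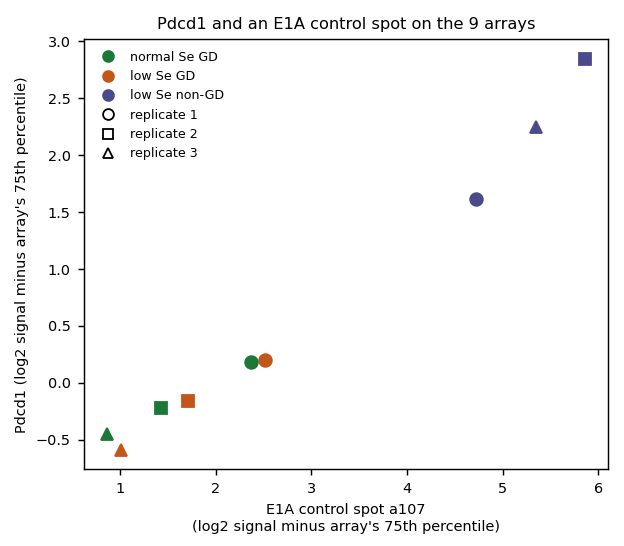
Level of Pdcd1 (vertical axis) against that of the E1A control spot a107 (horizontal axis) on the 9 arrays, both as log2 signal scaled to the 75th percentile, coloured by group with a marker shape per replicate. The diseased groups lie together at the lower left and the 3 low Se non-GD arrays at the upper right, and within each group Pdcd1 is higher on arrays where the control spot is brighter.

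Ctla4, the receptor that competes with CD28 for its ligands, had levels of -3.88, -3.92 and -3.91 in normal Se GD spleens, -3.68, -4.23 and -4.53 in low Se GD spleens, and -4.40, -4.15 and -4.02 in low Se non-GD spleens. The low Se GD arrays spanned the whole range of the others. Its fold changes were 0.04 (adjusted p = 0.913), 0.25 (adjusted p = 0.569) and 0.29 (adjusted p = 0.338) for disease at low selenium, normal against low selenium in disease, and normal Se GD against low Se non-GD. The first changed sign under several alternatives and carries no direction.

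Tigit, an inhibitory receptor for the poliovirus receptor family, was well above background on 7 of the 9 arrays, all 3 of low Se GD and 2 in each other group. Its levels were -4.62, -4.95 and -5.01 in normal Se GD, -4.73, -4.92 and -5.37 in low Se GD, and -5.37, -5.16 and -5.28 in low Se non-GD spleens. The diseased groups overlapped, and the normal Se GD arrays lay above the low Se non-GD arrays. No comparison passed the threshold, with fold changes of 0.27 (adjusted p = 0.332), 0.15 (adjusted p = 0.692) and 0.41 (adjusted p = 0.123) in the same order.

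Cd28 gives the main co-stimulatory signal to naive T cells. Its levels were 0.58, 0.70 and 0.51 in normal Se GD spleens, 0.67, 0.45 and 0.28 in low Se GD spleens, and -0.56, 0.08 and -0.24 in low Se non-GD spleens. Both diseased groups were above every low Se non-GD array and overlapped each other. The log2 fold change was 0.71 with disease at low selenium (SE 0.18, adjusted p = 0.0228), 0.84 between normal Se GD and low Se non-GD (SE 0.18, adjusted p = 0.00935) and 0.13 between the diseased groups (SE 0.18, adjusted p = 0.722), the last with an interval from -0.28 to 0.54. The first did not pass once replicate 3 of low Se non-GD was left out (adjusted p = 0.0741), nor when replicate 1 of low Se GD (0.0651) or replicate 2 of low Se GD (0.0744) was. In the shared scan batch, where low Se GD has 1 array and the spread comes from the other arrays, it was 0.91 (adjusted p = 0.0407). The second did not pass with the batch in the fit (1.19, adjusted p = 0.0551), a value that links through the same single low Se GD array. Nor did it pass without the 2 in-between arrays (0.84, adjusted p = 0.0752).

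Icos is induced after activation and sustains T cell help to B cells. Its brighter probe (A_51_P371279) had levels of 0.17, 0.26 and -0.03 in normal Se GD spleens, -0.57, -0.23 and -0.28 in low Se GD spleens, and -0.93, -0.61 and -0.72 in low Se non-GD spleens. The groups did not overlap, with normal Se GD highest and low Se non-GD lowest. The outer groups differed by 0.89 (SE 0.14, adjusted p = 0.00304), which passed the threshold. With the scan batch in the fit, which links them through a single low Se GD array, they differed by 0.66 (adjusted p = 0.0584). The steps between neighbours were 0.49 for normal against low selenium in disease (SE 0.14, adjusted p = 0.115) and 0.39 for disease at low selenium (SE 0.14, adjusted p = 0.0775), and neither passed. The second Icos probe (A_55_P1991773) had levels of -0.53, -0.42 and -0.28 in normal Se GD, -1.22, -0.92 and -0.78 in low Se GD, and -1.43, -0.97 and -1.20 in low Se non-GD spleens. It gave 0.79 between the outer groups (adjusted p = 0.00784), 0.57 between the diseased groups (adjusted p = 0.102) and 0.23 with disease at low selenium (adjusted p = 0.344). Both probes had the same order of group means and the same single call, with low Se GD and low Se non-GD overlapping by the second.

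The co-stimulatory TNF receptors differed less. Tnfrsf4 had levels of 0.02, 0.11 and 0.23 in normal Se GD spleens, -0.23, -0.23 and -0.15 in low Se GD spleens, and -0.10, 0.05 and -0.01 in low Se non-GD spleens. The low Se GD arrays were below all others. The fold change was 0.32 between the diseased groups (SE 0.095, unadjusted p = 0.00992, adjusted p = 0.123), 0.25 within the scan batch they share (adjusted p = 0.114), -0.18 with disease at low selenium (adjusted p = 0.207) and 0.14 against low Se non-GD (adjusted p = 0.301). Tnfrsf18 had levels of 1.94, 2.08 and 1.81 in normal Se GD, 1.74, 1.83 and 1.81 in low Se GD, and 1.75, 2.33 and 2.09 in low Se non-GD spleens. Its groups overlapped in every comparison, with fold changes of -0.26 (adjusted p = 0.262), 0.15 (adjusted p = 0.642) and -0.11 (adjusted p = 0.62) for disease at low selenium, selenium in disease and both together.

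**Figure D4:**
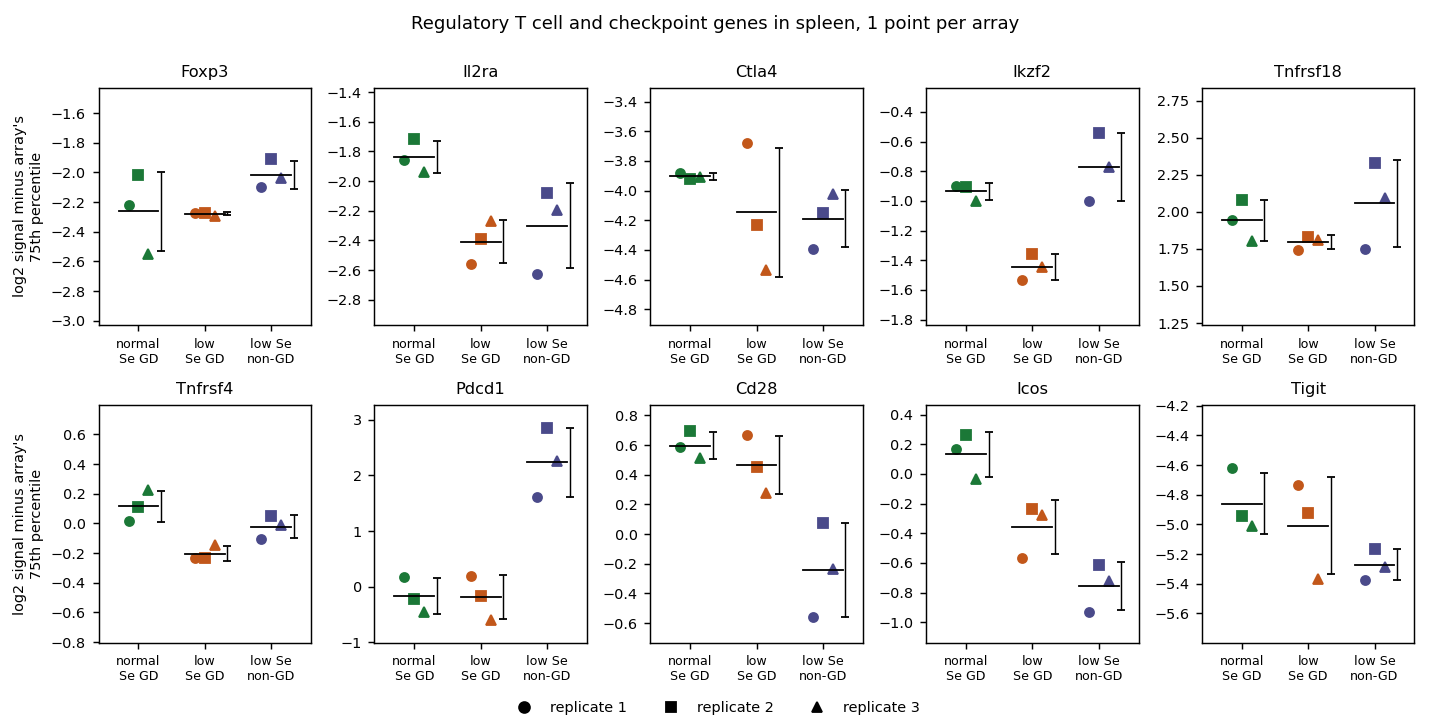
Levels of the 10 genes on each array (vertical axis, log2 signal scaled to the 75th percentile, with its own range per gene), with marker shapes for replicates, horizontal lines for group means and bars for the SD of 3 arrays. Pdcd1 is high only in low Se non-GD, Cd28 is low there, Icos is highest in normal Se GD and lowest in low Se non-GD, and the normal Se GD points of Ikzf2, Il2ra and Tnfrsf4 lie above those of low Se GD, differences that did not pass the threshold.

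Across the 9 arrays some members ran together, as described by Pearson's r over points that share groups and scan batches. The closest pairs were Ikzf2 with Tnfrsf18 (0.81), Cd28 with Icos (0.808) and Il2ra with Tnfrsf4 (0.802), and the most opposed was Pdcd1 with Cd28 (-0.715). Foxp3 was closest to Tnfrsf18 and Pdcd1 (0.741 each) and had an r of only 0.054 with Il2ra. Among 13375 named genes above background on all arrays, those most like each member in pattern included Dnajc4 (0.983) and Ctso for Foxp3, Pcdhb7 (0.971), Pdcd1lg2 and Prps2 for Il2ra, and Ralgps2 (0.99), Cuedc1 and Antxr2 for Ikzf2. For Tnfrsf4 they included Mthfsl (0.988), Dbp and Irf4, for Tnfrsf18 Cox6a2 (0.97) and Klk1b4, and for Ctla4 Nudt16 (0.945), Nosip and 1700029J07Rik. Cd28 was most like Abcc10 (0.986), Msl2 and Bcl7a, and Icos most like Map3k8 (0.989), Lrfn3 and Rap2b. Pdcd1lg2 encodes a ligand of PD-1. Pdcd1 was most like Ifnar1, D930007P13Rik and Ankrd12 (0.999 each), which had log2 fold changes of -3.04, -3.51 and -3.24 with disease at low selenium, and 134 of 18550 genes had an r of at least 0.99 to it.

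For the counts of related genes below, 24.9% of all genes passed with disease at low selenium, 1.26% between the diseased groups and 32.3% between the outer groups. The medians of all genes were 0.08, 0.00 and 0.06. An unadjusted p under 0.05 in limma, also counted below, was met by 19.4% of all genes between the diseased groups. Of 10 ligand genes, 2 rose and 0 fell with disease at low selenium: Il2, the cytokine that the Il2ra chain binds (0.47, adjusted p = 0.0422), and Nectin2, a ligand of TIGIT (0.46, adjusted p = 0.0107). Among diseased mice 1 rose with normal selenium, Pvr, another TIGIT ligand (0.73, adjusted p = 0.0472), which was -1.95 ± 0.23 in normal Se GD and -2.68 ± 0.08 in low Se GD spleens (SD, n = 3 each). Between normal Se GD and low Se non-GD 7 rose, the OX40 ligand Tnfsf4 (0.86), Pvr (0.76), Nectin2 (0.63), Il2 (0.61), the PD-1 ligand Cd274 (0.57), the CD28 and CTLA-4 ligand Cd86 (0.51) and the ICOS ligand Icosl (0.48), with adjusted p-values from 0.00256 to 0.0255. The medians of the list were 0.07, 0.46 and 0.59 in the 3 comparisons, in that order. With the scan batch in the fit 3 ligand genes passed in the last comparison.

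Of 10 genes of interleukin 2 receptor signalling 1 rose and 1 fell with disease at low selenium. The feedback inhibitor Socs1 was higher (0.79, adjusted p = 0.0063) and the shared gamma chain Il2rg lower (-0.57, adjusted p = 0.0328), and the other 8 did not pass. Between the diseased groups Socs2, another feedback inhibitor, rose with normal selenium (0.78, adjusted p = 0.0412) and 9 did not pass. Against low Se non-GD 5 rose in normal Se GD, with Socs1 (1.32, adjusted p = 0.000891), Socs2 (1.13, adjusted p = 0.00078), the beta chain Il2rb (0.97, adjusted p = 0.00802), the STAT5 target Cish (0.79, adjusted p = 0.0114) and the survival gene Bcl2 (0.70, adjusted p = 0.0184). The medians were 0.26, 0.38 and 0.50.

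Of 24 other regulatory T cell genes tested, 3 rose and 2 fell with disease at low selenium, and 19 did not pass, a share of calls no higher than the 24.9% of all genes. Il10, which encodes an anti-inflammatory cytokine, was higher by 0.81 (adjusted p = 0.002). It was dim, at -4.605 in low Se GD and -5.411 in low Se non-GD spleens, and well above background on 8 of the 9 arrays. Klrg1, a receptor of differentiated T and NK cells, was higher by 0.72 (adjusted p = 0.0352). Lrrc32, which anchors latent TGF-beta on regulatory T cells, was higher by 0.66 (adjusted p = 0.00258). Tnfrsf1b, the type 2 TNF receptor, was lower (-0.58, adjusted p = 0.0123). Entpd1, the ectonucleotidase CD39, was lower by 3.61 on the log2 scale (adjusted p = 0.00321), and it followed the E1A control spot as Pdcd1 did, with an r of 0.996 over the arrays and 0.957 within groups. None passed between the diseased groups in limma, where 9 had an unadjusted p under 0.05. In normal Se GD against low Se non-GD 7 rose and 2 fell, among them Il10 (1.1), Klrg1 (0.79), Tgfb1 (0.75) and the signalling protein Swap70 (0.63) as higher, and Entpd1 (-3.79) and Tnfrsf9 (-0.60), which encodes 4-1BB, as lower, beside 32.3% of all genes. The medians were 0.03, 0.19 and 0.13, and 3 genes of the list passed in the last comparison with the scan batch in the fit.

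Of 16 other checkpoint and exhaustion genes, 3 rose with disease at low selenium and 2 fell, a share of calls near the 24.9% of all genes. Lag3, an inhibitory receptor for MHC class II, was -2.26 ± 0.02 in low Se GD and -2.99 ± 0.15 in low Se non-GD spleens (SD, n = 3 each), a fold change of 0.72 (adjusted p = 0.0166). Cd226, the activating counterpart of TIGIT, rose by 0.70 (adjusted p = 0.00298) and the inhibitory receptor Cd200r1 by 0.55 (adjusted p = 0.0332), whereas Cd96, another receptor of PVR (-0.78, adjusted p = 0.00981) and the co-stimulatory receptor Cd27 (-0.52, adjusted p = 0.0413) fell. None passed between the diseased groups in limma, where 6 had an unadjusted p under 0.05. In normal Se GD against low Se non-GD 5 rose, Lag3 (1.51, adjusted p = 0.00099), Cd226 (1.097, adjusted p = 0.000526) and the transcription factors Tox (0.49), Eomes (0.48) and Nfatc1 (0.40), and none fell, a share near the 32.3% of all genes. The medians of the list were 0.07, 0.20 and 0.37. Of 17 genes of co-stimulation signalling, the phosphoinositide 3-kinase subunit Pik3r1 (0.90, adjusted p = 0.0203) and the ubiquitin ligase Cblb (0.75, adjusted p = 0.0116) rose with disease at low selenium. The phosphatase Ptpn6 fell (-0.35, adjusted p = 0.0475). Pik3r1, Cblb and Bcl10 rose in normal Se GD against low Se non-GD, and none passed between the diseased groups, where 3 had an unadjusted p under 0.05. With the scan batch in the fit, the counts of that last comparison with low Se non-GD were 3 checkpoint and 1 signalling gene. Between the diseased groups that fit called 2 genes in each list except co-stimulation signalling, which had 0, beside 6.49% of all genes. With disease at low selenium that fit rests on a single low Se GD array, and its list counts are not reported here. Quantile normalization called 0 ligands and 0 interleukin 2 receptor signalling genes between the diseased groups, where 0.175% of all genes passed.

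**Figure D5:**
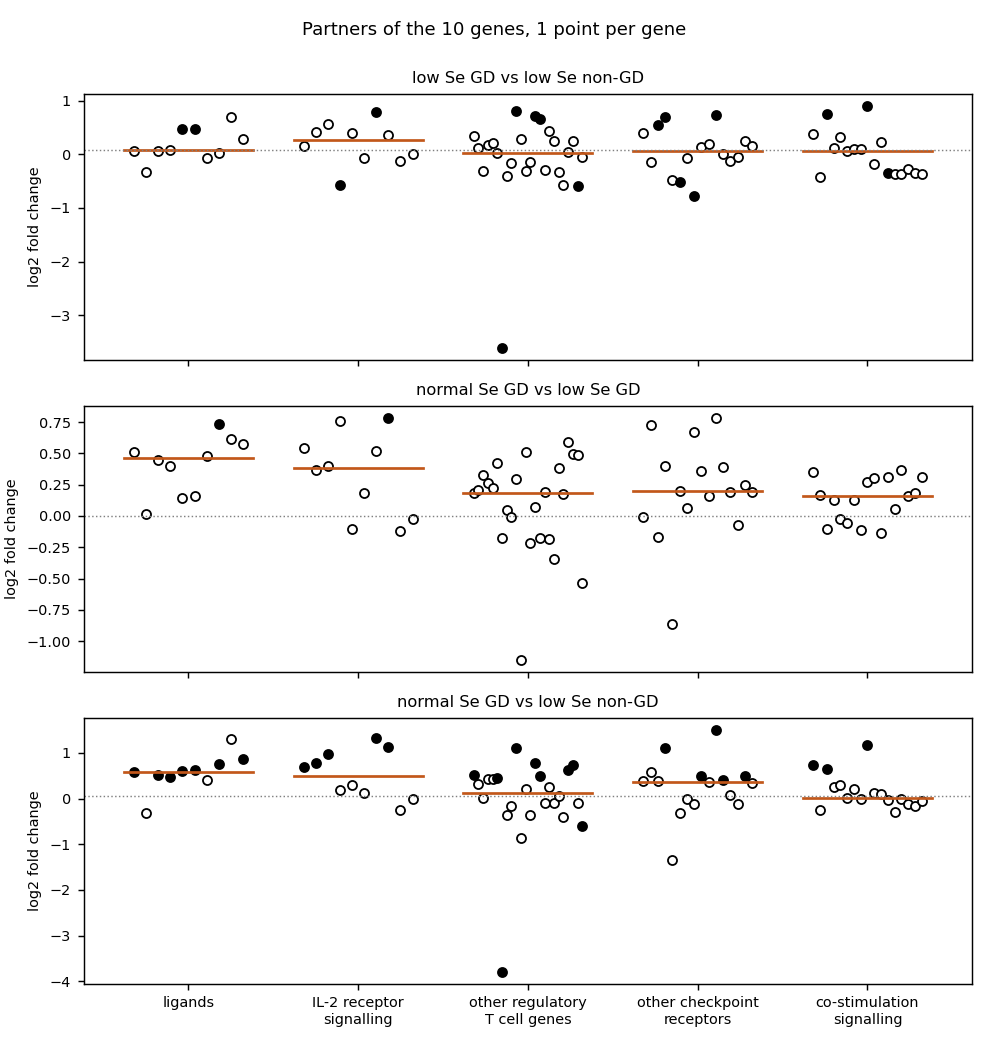
Log2 fold changes (vertical axis, its range differing between panels) of the ligands, the interleukin 2 receptor signalling genes and the other related lists, 1 point per gene and 1 panel per comparison, filled where the adjusted p is under 0.05, with an orange line at the list's median and a dotted line at the median of all genes. Filled points above the dotted line are most numerous for normal Se GD against low Se non-GD, and the point near -3.6 and -3.8 is Entpd1.

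Markers of T cells as a whole had median log2 fold changes of -0.03, 0.07 and 0.04 in the 3 comparisons. Single ones ranged from -1.105 (Cd247) to 0.745 with disease at low selenium. Cd247 was dim, at -4.34 in low Se GD and -3.235 in low Se non-GD spleens, and well above background on 8 of the 9 arrays. Of 23 such markers, 0 rose and 1 fell with disease at low selenium, and 0 passed between the diseased groups. In normal Se GD against low Se non-GD 2 rose and 1 fell. At an unadjusted p under 0.05 in limma the counts were 6, 0 and 5. That limit was met by 19.4% of all genes between the diseased groups, and the shares for the other comparisons are not reported here. The mean level of the 23 ranged from 1.11 to 1.19 in normal Se GD, 1.04 to 1.22 in low Se GD and 0.82 to 1.48 in low Se non-GD spleens. Cd3e gave 0.20 (adjusted p = 0.576), Cd4 -0.03 (adjusted p = 0.925) and Cd8a -0.42 (adjusted p = 0.178) with disease at low selenium. Markers of other cells that can carry some of the 10 genes moved more, and their part in the differences was not tested. Of 10 NK cell markers 7 rose with disease at low selenium, 0 passed between the diseased groups and 9 rose in normal Se GD against low Se non-GD, the mean ranging from -1.07 to -1.001 in normal Se GD, -1.41 to -1.22 in low Se GD and -2.39 to -1.98 in low Se non-GD. Of 11 macrophage markers 7, 1 and 9 rose in the 3 comparisons, and of 10 dendritic cell markers 6, 1 and 6. Of 12 B cell markers 4 fell with disease at low selenium, 3 rose with normal selenium in disease, and 2 rose and 2 fell between the outer groups. No erythroid marker of 10 passed in any comparison, with 1, 5 and 0 at an unadjusted p under 0.05 and medians of 0.76, -1.05 and -0.35. Their mean level ranged from 2.87 to 2.90 in normal Se GD, 3.52 to 3.97 in low Se GD and 2.13 to 3.89 in low Se non-GD spleens, without overlap between the diseased groups.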

How the data were processed

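Total RNA of 9 spleen samples had been labelled by Agilent's 1-colour protocol and hybridised to Agilent arrays (design 026655), per the labels' protocols. The deposited scanner files hold a linear intensity per spot which, per the file headers, came from Agilent Feature Extraction 11.0.1.1, already background-subtracted and not scaled between arrays. Their 0 or 1 flags for spots well above background, saturated or outlying come from the same deposited files. The authors' table of log2 values for the series, deposited without its method in the sources used here, served as an alternative only. Its columns share a median of 6.43 over 39485 probes. By rank correlation, the columns of low Se non-GD fit a different array of that group best, so replicate numbers within that group are uncertain and its membership is not.

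From the log2 of the processed signal, the 75th percentile of the array's 43020 non-control spots was subtracted, with 1377 control spots left out. Spots marked as outliers were dropped, spots of 1 probe averaged, and a gene was represented by its probe of highest mean signal. Accessions matched to a GRCm38.p6 gene table named 27234 of 39429 probes. Of 32451 genes or accessions, 6052 that were well above background on fewer than 3 arrays and 48 with a marked spot were left out, and 26351 were tested. Tests ran in R 4.3.3 with limma 3.58.1 (eBayes after lmFit, 2-sided, a single fit of all 9 arrays, 6 residual and 1.81 prior degrees of freedom), with Benjamini-Hochberg adjustment over all genes and a threshold of 0.05. SE is limma's moderated standard error of the log2 fold change, SD the spread of 3 arrays, and the number of arrays limits the precision. The procedure was tested on simulated data.

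All 10 members are named, and from each related list up to 6 genes past the threshold in a comparison by size, with Icosl named in addition as the last of 7 ligands. Up to 3 genes most alike in pattern are named per member, and some are not reported here. The members and lists were chosen with earlier results of these data known. Alternatives covered background, scaling, filter, probe choice, scan batch, array weights, threshold, the replicate block and each array left out. The background alternative (normexp) used median signals in place of mean ones, which the files did not hold.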

Additional observations from a re-analysis of the deposited data

How the results depend on the processing

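Of 737 values recomputed for the members under the alternatives, 682 kept direction and side of the threshold, 11 lost the call, 26 gained one and 18 changed sign, none of those called either way. The number of members called with disease at low selenium was 9 under array weights (75.7% of all genes). With single arrays left out it was 2 to 5 (13.1% to 40.9% of all genes). It was 0 without the 2 arrays lying between the others (1.02% of all genes), whose removal widens the estimated spread for most genes. Between the diseased groups it was 1 with only genes above background on all arrays (6.92% of all genes). It was 5 under array weights (41% of all genes) and 1 at a threshold of 0.1 (5.72% of all genes). With any single array left out it was 0. Without normal Se GD replicate 3, 4.08% of all genes passed, and in the other such fits at most 1 gene did. A count of 0 members in those other fits was thus all but fixed by the setting. Between normal Se GD and low Se non-GD it was 1 with the scan batch (slide block) in the fit (4831 of the 26351 genes). It was 5 under array weights (70.1% of all genes) and 3 to 4 with single arrays left out (20.6% to 43.8% of all genes). Same-numbered samples did not deviate together (correlations of -0.212 to 0.097). With a replicate block 3, 0 and 3 members were called, beside 19.5%, 0% and 27.3% of all genes. The cause of these changes was not tested.

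With disease at low selenium, Ctla4 changed sign to -0.347 and Tigit to -0.395 under normexp, Il2ra to 0.002 under quantile normalization and Ctla4 to -0.195 under array weights. Between the diseased groups, Foxp3 was -0.037 under quantile normalization, -0.044 under median scaling and -0.025 in the authors' table, and Pdcd1 was -0.037 under median scaling. Between the outer groups Ikzf2 was 0.199 with the mean of its probes. With single arrays left out, Il2ra ranged from -0.27 to 0.002 and Ctla4 from -0.193 to 0.235 with disease at low selenium, Foxp3 from -0.104 to 0.16, Pdcd1 from -0.177 to 0.216 and Tigit from -0.031 to 0.287 between the diseased groups, and Tnfrsf18 from -0.269 to 0.024 between the outer groups. The median of all genes was -0.161 under normexp and 0.179 under median scaling with disease at low selenium, against 0.076, and 0.16 under normexp between the diseased groups, against 0.001. The limits are 3 arrays a group, scan batches tied to the groups, a signal near background for Tigit, and 1 probe for 8 of the 10 genes. Among the related genes, Il10, Tnfsf4, Tnfsf18, Cd160 and Rel were also not well above background on every array, nor were some cell type markers, Cd247 among them.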
